A study of Mus musculus with 15 samples.

Results

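Expression of Trp53 and of genes that the p53 protein switches on was examined in hematopoietic stem cells (HSC) of young, aged and nicotinamide riboside (NR)-treated aged mice. The 10 genes were Trp53, Mdm2, Ccng1, Cdkn1a, Bax, Bbc3, Eda2r, Zmat3, Phlda3 and Sesn2, a list of well-known p53 targets drawn up with earlier results of these data known and with no threshold on their values. 9 of them were taken from the count table of 16154 genes, and Phlda3 was not analysed here. All mice were C57BL/6 and labelled female, and HSC were sorted from bone marrow by the study as lineage-negative, Sca-1+, cKit+, CD150+ and CD48- cells. Young mice were 6 to 12 weeks old and aged mice 20 to 24 months old, both without NR, and the third group were aged mice of 20 to 24 months that drank NR, a vitamin B3 form and NAD precursor, at 3 mg/ml in water for 2 months. Each group had 5 libraries, each from 1 mouse, made with a 3′ biased protocol in which unique molecular identifiers (UMI) mark reads copied from the same molecule.

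p53 is a transcription factor that is held at low levels in unstressed cells, mainly because the ubiquitin ligase Mdm2 marks it for degradation. DNA damage and other stress release it from Mdm2, and it then activates genes for cell cycle arrest, apoptosis, DNA repair and metabolic restraint, together with Mdm2 itself, which closes a negative feedback loop. In HSC, p53 is known for restraining entry into the cell cycle and for shaping the response to radiation. Much of p53 activity is set at the protein level, which RNA counts do not measure.

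p53 binds a pair of 10-base units. The windows from 250 bases before to 50 bases after RefSeq transcript starts (GRCm38.p6) were searched for 1 such unit, the p53 decamer consensus, which reads the same on both strands. Of the 8 measured genes with a window, 5 held at least 1 match, while 9.55% of all 27025 genes did. Per window it was 5 of 11, beside 8.36% of all 32851 windows. A match is only a run of letters, and no binding was measured. The matches are shown because they mark which of these genes carry at least 1 decamer, not a whole pair, next to a start. The decamer is in capitals and the gene's strand is written 5′ to 3′.

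Trp53 (chr11:69580274-69580303, plus strand, 75 bases upstream of the start): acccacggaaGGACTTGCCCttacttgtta

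Mdm2 (chr10:117710925-117710954, minus strand, 186 bases upstream): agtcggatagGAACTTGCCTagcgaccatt

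Ccng1 (chr11:40755452-40755481, minus strand, 185 bases upstream): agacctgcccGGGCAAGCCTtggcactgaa

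Cdkn1a, first match (chr17:29090896-29090925, plus strand, 73 bases upstream): tcctgggtggGGACTAGCTTtctggccttc

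Cdkn1a, second match (chr17:29090918-29090947, plus strand, 51 bases upstream): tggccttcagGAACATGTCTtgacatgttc

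Bax (chr7:45467080-45467109, minus strand, 201 bases upstream): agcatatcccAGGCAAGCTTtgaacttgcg

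Cdkn1a was the only one of these genes with a pair of decamers no more than 13 bases apart, an arrangement found in 0.0731% of all windows. The pair lies before the first of its RefSeq starts, and the second match is 2841 bases upstream of its other start at position 29093769. The windows of Bbc3, Eda2r and Sesn2 held no match, which says only that these letters are not in these windows.

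The total count per library was 2122221 to 3631395 in young, 764119 to 13318989 in aged and 2486399 to 3595384 in NR-treated HSC. Aged replicate 2 was the shallowest library, and its counts were 1 for Eda2r, 2 for Zmat3 and 3 for Sesn2. Counts up to 3 were treated as the detection limit, which covers counting error only. All 9 HSC marker genes had at least 19 counts in every library, among them Slamf1 (CD150) at 30.5 to 88.2 CPM (counts scaled to a common library size). Of these 9 markers 4 were higher in aged than in young HSC and 1, Slamf1, was lower in NR-treated than in aged HSC. In these comparisons 19.3% and 8.07% of all genes had an adjusted p under 0.05 from edgeR. Cd48, which the sort excludes, was at 3.51 to 35.0 CPM in young, 7.78 to 40.2 CPM in aged and 1.19 to 5.45 CPM in NR-treated HSC, and was lower in NR-treated than in aged HSC (adjusted p = 0.00776 from edgeR). Flt3, a progenitor marker, was lower in aged than in young HSC (adjusted p = 0.000107 from edgeR). The summed level of 24 marker genes of mature blood cells was 744 to 10279 CPM in young, 6579 to 9069 CPM in aged and 467 to 1250 CPM in NR-treated HSC. Of the 24 mature markers 5 were higher in aged than in young HSC and 19 were lower in NR-treated than in aged HSC, none in the other direction. The same 19.3% and 8.07% of all genes stand beside these counts. The part of mature cells in the differences given below was not tested for any gene. The 5 were 4 erythroid markers and 1 B cell marker, with 0 of 6 neutrophil and 0 of 4 monocyte and macrophage markers. The young value of 10279 CPM belonged to replicate 3. Young replicates 1 and 5 held transcripts of 4 Y-linked genes, at a sum of up to 105 CPM against at most 3.00 CPM in aged and NR-treated libraries. All values below are CPM with TMM effective library sizes, differences are log2 fold changes from 1 edgeR fit of all 15 libraries, and a gene was called where its adjusted p (quasi-likelihood test, Benjamini-Hochberg over all 16154 genes) was under 0.05.

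Among the 9 genes, only Trp53 was called between young and aged HSC, and it was lower in aged HSC. This is 1 of 9 genes, where 19.3% of all genes were called and 9.63% were lower. None of the 8 target genes was called in this comparison. At an unadjusted p under 0.05 there were 3 of the 8, Mdm2 below and Ccng1 and Eda2r above the young level, beside 33.2% of all genes. The likelihood ratio test and DESeq2 also called 1 of the 9, again lower. The median log2 fold change over the 9 genes was -0.20, that over all genes was -0.03, and 6 of the 9 estimates were negative.

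**Figure D1:**
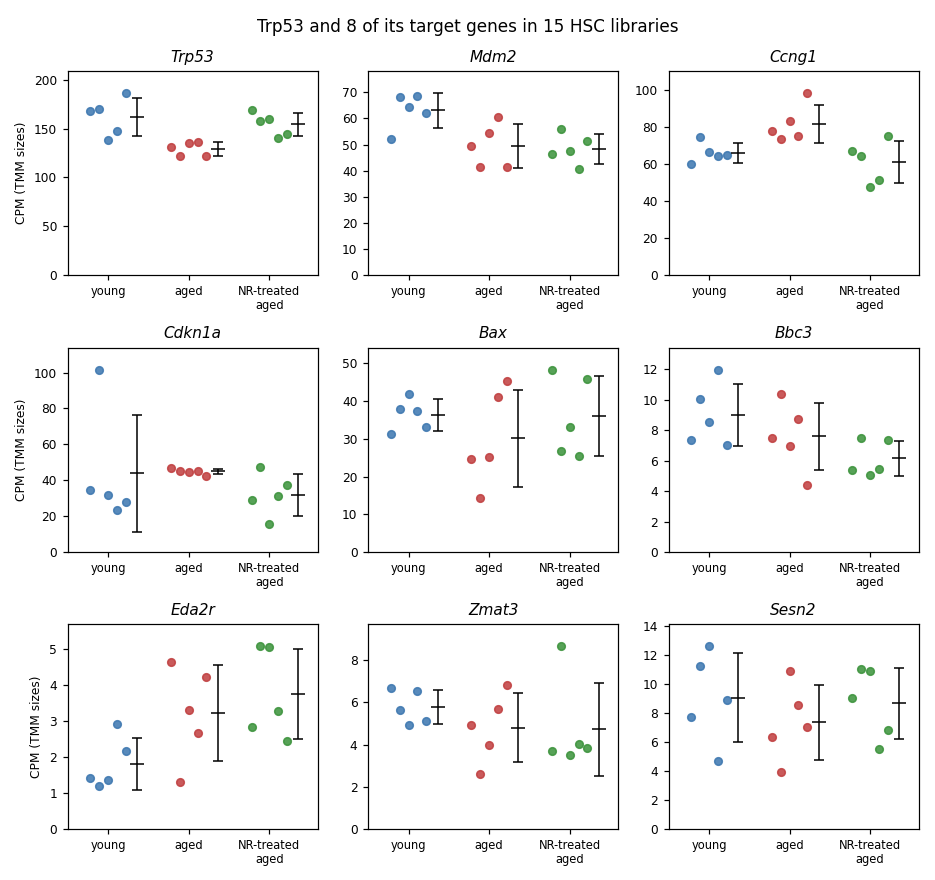
CPM (linear axis from 0) of each gene in young, aged and NR-treated aged HSC, with 1 point per library and the mean ± SD (n = 5) beside it. All 5 aged Trp53 points lie below the young and NR-treated points, and 1 young Cdkn1a point, at 101.7 CPM, lies far above the other young points.

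Trp53 (chromosome 11, 69580359 to 69591873) was measured at 167.7, 169.6, 137.9, 147.3 and 186.6 CPM in young replicates 1 to 5. The aged libraries had 131.5, 122.0, 135.1, 136.0 and 122.1 CPM, on 94 to 1599 counts. Every aged library lay below every young library, though the lowest young and the highest aged value were only 137.9 and 136.0 CPM. Libraries were separated in this direction for 5.53% of all genes. The means were 161.8 ± 19.3 and 129.3 ± 6.88 CPM (SD, n = 5), a log2 difference of -0.32 (SE, the standard error, 0.10, adjusted p = 0.0305 from edgeR) or 19.9% less by the fit. The direction held in every alternative fit, but the call was lost in 5 of the 15 fits that left out 1 library, which were young replicate 1 or 5 and aged replicate 2, 3 or 5 (adjusted p up to 0.0934). Without both young libraries that held Y-linked transcripts the log2 fold change was -0.23 (adjusted p = 0.212 from edgeR), and with the replicate number as a block it was -0.32 (adjusted p = 0.0606 from edgeR).

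Within groups, the level of mature blood cell markers moved opposite to Trp53. In deviations from the group means over 15 libraries, log2 CPM of Trp53 and of the summed markers had a Pearson r of -0.73 (Spearman rho -0.70). Pearson r was -0.59 without the 2 libraries farthest from the median marker level, young replicate 3 and aged replicate 2. These 2 were picked by the level and not by the deviation from the group mean. Young replicate 2 (744 CPM) and NR-treated replicate 5 (1250 CPM) stayed in, so r without the largest deviations was not measured. Only 0.312% of 9605 genes with at least 10 CPM on average had a lower r. The points share library depth and scaling, so this is a description. In bulk samples a smaller share of one cell type and less RNA per cell cannot be told apart. Young replicate 3, with a higher marker sum than any aged library, had the lowest young Trp53 level. Its sum was made up differently, with 4722 CPM of neutrophil markers against 694 to 1371 CPM in aged libraries and 2619 CPM of erythroid markers against 3210 to 6497 CPM. Without that library the log2 fold change was -0.37 and passed the threshold. The part of mature cells in the Trp53 difference was not tested.

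After NR, Trp53 was measured at 169.2, 158.0, 159.8, 140.3 and 144.3 CPM, with a mean of 154.3 ± 11.9 CPM (SD, n = 5). All 5 NR-treated libraries lay above all 5 aged libraries, a separation in this direction found for 3.65% of all genes. The log2 fold change against aged HSC was 0.25 (SE 0.10, 95% interval 0.04 to 0.46), with an adjusted p of 0.123 from edgeR, which did not pass the threshold. With library totals in place of TMM it was 0.39 and passed (adjusted p = 0.0185 from edgeR). With only genes counted 10 times or more in each library it was 0.32 and also passed (adjusted p = 0.0426 from edgeR). Against young HSC the log2 fold change was -0.07, with a 95% interval from -0.28 to 0.14. NR-treated and young libraries overlapped.

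Mdm2 (chromosome 10, 117688875 to 117710758), the main negative regulator of p53 and itself a target, had 51.9, 68.3, 64.2, 68.6 and 62.0 CPM in young libraries. It had 49.4, 41.5, 54.3, 60.4 and 41.4 CPM in aged libraries and 46.3, 56.0, 47.4, 40.5 and 51.5 CPM in NR-treated libraries. Both aged groups centred below the young group, and in each some libraries overlapped with young replicate 1. The log2 fold change was -0.33 for aged against young (SE 0.13, adjusted p = 0.0810 from edgeR) and -0.38 for NR-treated against young HSC (SE 0.13, adjusted p = 0.114 from edgeR). Neither passed. The first passed with library totals (-0.46, adjusted p = 0.0166 from edgeR), with genes counted 10 times or more in each library (-0.39, adjusted p = 0.0289 from edgeR) and without aged replicate 4 (-0.41, adjusted p = 0.0420 from edgeR). Between NR-treated and aged HSC the estimate was -0.05, with a 95% interval from -0.32 to 0.22, and its sign changed with library totals (0.09).

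Ccng1 (chromosome 11, 40748552 to 40755311) encodes cyclin G1, which works with a protein phosphatase in the Mdm2 feedback on p53. It was the only one of the 9 genes called between NR-treated and aged HSC, where 8.07% of all genes were called and 4.18% were lower. Aged libraries had 78.2, 74.0, 83.4, 75.2 and 98.8 CPM and NR-treated libraries 67.2, 64.7, 47.8, 51.5 and 75.2 CPM. The groups met at their edges, with a lowest aged value of 73.95 and a highest NR-treated value of 75.15 CPM. The means were 81.9 ± 10.1 and 61.3 ± 11.4 CPM (SD, n = 5), a log2 difference of -0.42 (SE 0.13, adjusted p = 0.0475 from edgeR). The call was close to the threshold. It was lost in 12 of the 15 fits that left out 1 library, which were all but those without young replicate 2 or 3 or NR-treated replicate 5, with log2 fold changes between -0.51 and -0.34 and adjusted p up to 0.143 from edgeR. It was also lost with only the 2 groups compared (adjusted p = 0.0619 from edgeR), without young replicates 1 and 5 (adjusted p = 0.0644 from edgeR), with genes counted 10 times or more in each library (-0.35, adjusted p = 0.0713 from edgeR), with library totals (-0.28, adjusted p = 0.145 from edgeR) and with counts thinned to the smallest total (-0.23, adjusted p = 0.542 from edgeR).

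In young libraries Ccng1 was measured at 60.0, 74.7, 66.9, 64.6 and 65.3 CPM. Aged HSC had the highest mean of the 3 groups, and the log2 fold change of aged against young HSC was 0.31 (SE 0.13, adjusted p = 0.0925 from edgeR), which did not pass. Both comparisons use the same aged libraries. The part of mature cells in the differences of Ccng1 was not tested. NR-treated and young HSC differed by -0.11, with a 95% interval from -0.38 to 0.16.

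**Figure D2:**
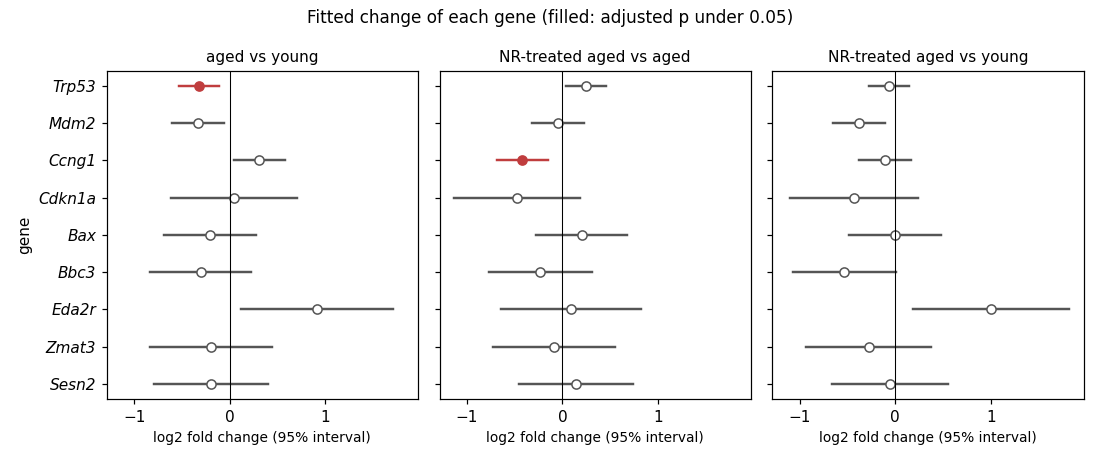
Log2 fold change (horizontal axis) of each gene in 3 comparisons, with its 95% interval from the edgeR fit and filled points where the adjusted p was under 0.05. Trp53 in aged against young HSC (-0.32) and Ccng1 in NR-treated against aged HSC (-0.42) are the filled points, and intervals are widest for Eda2r.

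Cdkn1a (chromosome 17, 29090976 to 29100727) encodes p21, the inhibitor of cyclin-dependent kinases through which p53 arrests the cycle. The result for this gene turned on 1 young library. Young replicates 1 to 5 had 34.4, 101.7, 31.9, 23.2 and 28.05 CPM. Aged libraries were close together at 47.0, 45.4, 44.6, 45.3 and 42.6 CPM, a coefficient of variation of 3.54% against 74.4% in young and 36.5% in NR-treated HSC. The aged values rest on 35 to 528 counts, and the young spread includes replicate 2. Whether the groups differ in spread was not tested. NR-treated libraries had 28.8, 47.4, 15.6, 31.0 and 37.6 CPM.

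With all libraries the log2 fold change of Cdkn1a between aged and young HSC was 0.05 (SE 0.32, 95% interval -0.61 to 0.70, adjusted p = 0.944 from edgeR). Without young replicate 2 it was 0.62 and passed the threshold (adjusted p = 0.0464 from edgeR). The 4 remaining young libraries, at 23.2 to 34.4 CPM, all lay below the aged libraries. Young replicate 2 stood out by its own Cdkn1a value. This separation and the adjusted p of fits without that library are therefore descriptions, not tests. The share of all genes with such a separation was not counted. Without young replicates 2 and 3 the log2 fold change was 0.65 but did not pass (adjusted p = 0.0574 from edgeR). Without young replicates 1 and 5 the estimate was -0.22. Between NR-treated and aged HSC it was -0.48 (95% interval -1.14 to 0.18, adjusted p = 0.361 from edgeR). In that comparison 4 of the 5 NR-treated libraries lay below all aged libraries, and how many genes do so was not counted.

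Other genes were high in young replicate 2 as well. Over 8974 genes with at least 10 CPM on average, predicted genes and clones left out, Cdkn1a ranked 14 by its log2 excess over the median of the other young libraries (1.75). The genes ranked 1 to 5 were Cxcl2 (4.31), a chemokine, Hes1 (4.19), Rps19-ps7 (3.50), Atf3 (3.23), a stress-induced transcription factor, and Plcxd3 (3.03). Those ranked 6 to 10 were Gadd45b (2.96), Zzef1 (2.44), Bhlhe40 (2.31), Socs3 (2.21) and Rnu3a (1.90). Jun ranked 13 (1.78). These genes were picked after their values were seen. In the same library the excess was 0.11 for Trp53, 0.11 for Mdm2, 0.20 for Ccng1 and 0.10 for Bax, while the p53 targets Btg2 and Plk2 had 0.91 and 0.56. Of other immediate early genes, Junb had 1.23, Ier2 0.92, Fosb 0.35, Egr1 0.17 and Fos 0.06. This library also had the lowest mature marker level of the young group, at 744 CPM.

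**Figure D3:**
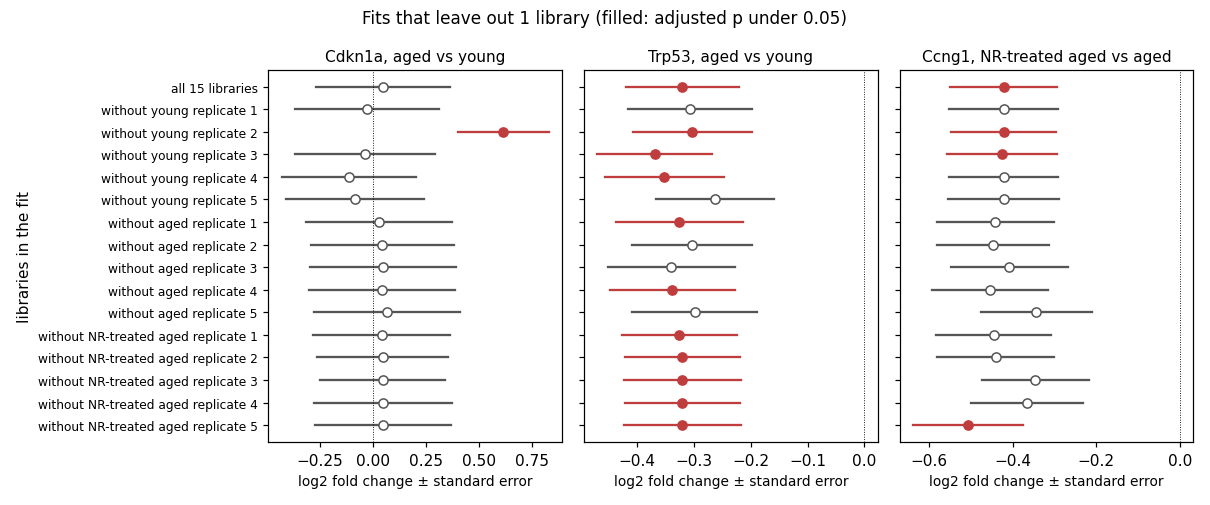
Log2 fold change ± standard error (horizontal axis) of Cdkn1a and Trp53 in aged against young HSC and of Ccng1 in NR-treated against aged HSC, in the fit of all 15 libraries and in fits that leave out 1 library, with filled points where the adjusted p was under 0.05. Cdkn1a moves from 0.05 to 0.62 without young replicate 2, while Trp53 and Ccng1 keep their direction and lose the call in 5 and 12 fits.

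Bax and Bbc3, both effectors of apoptosis, were not called in any comparison. Bax (chromosome 7, 45461697 to 45466898), which perforates the outer mitochondrial membrane, had 31.2 to 41.8 CPM in young, 14.3 to 45.2 CPM in aged and 25.6 to 48.3 CPM in NR-treated HSC. The lowest aged value, in the shallow aged replicate 2, rests on 11 counts. The log2 fold change was -0.20 between aged and young (95% interval -0.69 to 0.28), 0.20 between NR-treated and aged (-0.28 to 0.68) and close to 0 between NR-treated and young HSC (-0.49 to 0.48).

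Bbc3 (chromosome 7, 16308393 to 16318205) encodes PUMA, which frees Bax by binding anti-apoptotic BCL2 proteins. Young libraries had 7.37, 10.0, 8.53, 12.0 and 7.01 CPM, aged libraries 7.51, 10.4, 6.93, 8.71 and 4.42 CPM and NR-treated libraries 5.37, 7.45, 5.06, 5.48 and 7.35 CPM. All groups overlapped. The estimates were -0.30 for aged against young, -0.23 for NR-treated against aged and -0.53 for NR-treated against young HSC (95% interval -1.07 to 0.01, adjusted p = 0.286 from edgeR).

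Eda2r (chromosome X, 97333840 to 97377216), a receptor of the tumour necrosis factor receptor family, had the highest estimated change with age among the 9 genes but few counts. It was at 1.40, 1.21, 1.35, 2.90 and 2.16 CPM in young, 4.62, 1.30, 3.30, 2.67 and 4.22 CPM in aged and 2.82, 5.07, 5.06, 3.29 and 2.45 CPM in NR-treated libraries. The young values rest on 3 to 8 counts, with 2 young libraries and aged replicate 2 at the limit of 3 counts or under it. The log2 fold change against young HSC was 0.92 for aged (SE 0.38, 95% interval 0.12 to 1.72, adjusted p = 0.0996 from edgeR) and 1.01 for NR-treated HSC (SE 0.39, 95% interval 0.19 to 1.82, adjusted p = 0.167 from edgeR). Neither was called. NR-treated and aged HSC differed by 0.09, with a 95% interval from -0.65 to 0.83.

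Zmat3 (chromosome 3, 32334792 to 32366014), a zinc finger protein that binds RNA, and Sesn2 (chromosome 4, 132492032 to 132510501), a sestrin that restrains the growth kinase complex mTORC1, were also measured at low levels. Zmat3 had 4.94 to 6.67 CPM in young, 2.59 to 6.83 CPM in aged and 3.50 to 8.65 CPM in NR-treated HSC. Sesn2 had 4.72 to 12.6 CPM in young, 3.89 to 10.9 CPM in aged and 5.48 to 11.03 CPM in NR-treated HSC. The groups overlapped for both genes in each comparison. The estimates for aged against young HSC were -0.20 (95% interval -0.83 to 0.44) for Zmat3 and -0.19 (-0.80 to 0.41) for Sesn2. Both intervals include the size of the Trp53 difference.

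None of the 9 genes was called between NR-treated and young HSC by edgeR's quasi-likelihood test, where 4.47% of all genes were called. The likelihood ratio test and DESeq2 called 0 as well, and 2 genes (Mdm2 and Eda2r) had an unadjusted p under 0.05, beside 18.0% of all genes. Summed over the 8 target genes, the level was 201 to 311 CPM in young (median 220 CPM), 193 to 250 CPM in aged (median 233 CPM) and 167 to 230 CPM in NR-treated HSC (median 212 CPM). The highest young sum belonged to replicate 2, with 101.7 CPM from Cdkn1a. Most of each sum came from Mdm2, Ccng1, Cdkn1a and Bax, so it says little about the low genes.

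In deviations from the group means over 15 libraries, the 36 pairs of the 9 genes had a median Pearson r of 0.21 and ranged from -0.36 to 0.59, with 26 pairs above 0. The highest values were 0.59 for Eda2r with Zmat3, 0.55 for Ccng1 with Bax and 0.52 for Ccng1 with Cdkn1a. Trp53 with each of its 8 targets ranged from -0.22 to 0.39. The pairs share libraries and their depth, and Eda2r and Zmat3, both low in counts, had r of 0.56 and 0.43 with the log2 total count.

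The genes whose log2 CPM most resembled Trp53 over the 15 libraries, among 8973 genes, were Myc (Pearson r 0.87, Spearman rho 0.85), Depdc5 (0.83 and 0.82) and Mrgbp (0.82 and 0.81). Without the 2 libraries farthest from the Trp53 median, Pearson r was 0.80, 0.73 and 0.68. These values include the group differences. In deviations from the group means, Pearson r with Trp53 was 0.76, 0.60 and 0.69. The genes most like Ccng1 were Atp6v1c1 (0.91 and 0.96), Atp6v1e1 (0.91 and 0.89) and Arl6 (0.88 and 0.90), with Pearson r of 0.87, 0.85 and 0.75 without the 2 farthest libraries. In deviations from the group means, Pearson r with Ccng1 was 0.83, 0.83 and 0.88. Atp6v1c1 and Atp6v1e1 encode subunits of the vacuolar proton pump. All of these genes were picked for the highest r, so this is a description.

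Beyond these genes, lists of other p53 pathway genes held 69 measured genes. Between young and aged HSC 13 of them were called (18.8%), 4 higher and 9 lower in aged HSC, beside 19.3% of all genes. Between aged and NR-treated HSC 8 were called (11.6%), 2 higher and 6 lower after NR, beside 8.07% of all genes. Between young and NR-treated HSC there were 2 (2.90%), both higher after NR, beside 4.47% of all genes. Without young replicates 1 and 5 the counts were 5, 7 and 0, beside 1862, 1084 and 583 of all 16154 genes. With all libraries, 7 of the 69 had no overlap between aged and young libraries, beside 2002 of all genes. Between NR-treated and aged libraries this held for 10, beside 1389 of all genes.

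**Figure D4:**
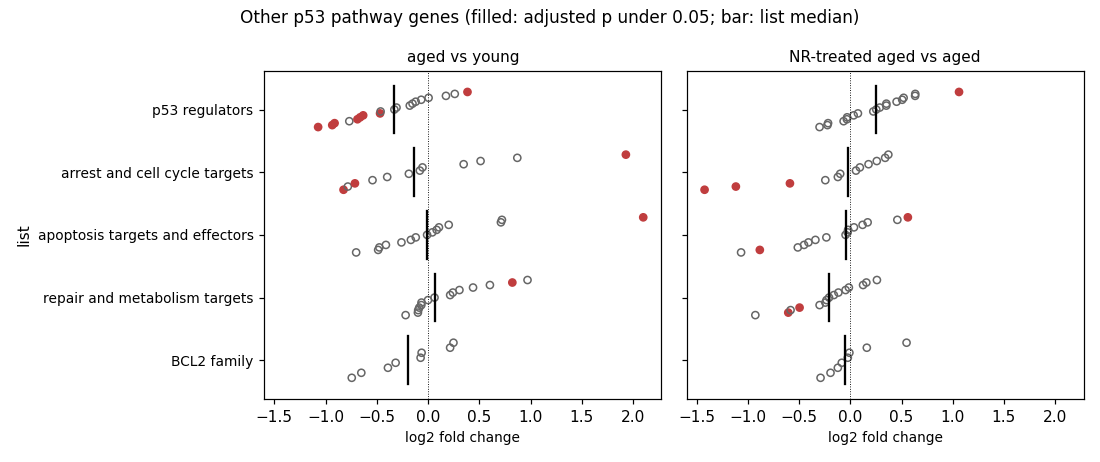
Log2 fold change (horizontal axis) of 69 other p53 pathway genes by list, for aged against young (left) and NR-treated against aged HSC (right), with 1 point per gene, filled where the adjusted p was under 0.05, and a bar at each list's median. Both panels share the aged libraries. The called regulators lie below 0 on the left apart from Rpl11, and Plk2 (1.93) and Perp (2.10) stand furthest right.

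Of 19 measured regulators of p53 (20 listed), 7 were lower and 1 higher in aged than in young HSC (42.1%, beside 19.3% of all genes), with a list median log2 fold change of -0.33 beside -0.03 for all genes. Without young replicates 1 and 5, which held Y-linked transcripts, 2 of the 19 were called, Cop1 and Ep300, both lower. In that fit 1862 of all 16154 genes were called, against 3120 with all libraries. Cop1 (counted under its older symbol Rfwd2), a ubiquitin ligase that targets p53, was at 47.0, 23.7, 48.0, 52.6 and 50.2 CPM in young and at 30.9, 19.5, 16.7, 22.2 and 15.3 CPM in aged libraries. Its log2 fold change was -1.07 (SE 0.23, adjusted p = 0.00327 from edgeR), and only young replicate 2 overlapped with the aged libraries. After NR it was at 36.7, 39.4, 58.3, 54.8 and 32.1 CPM, above all aged libraries, with a log2 difference of 1.06 (SE 0.23, adjusted p = 0.0112 from edgeR).

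Other regulators called lower in aged HSC act before p53 or on its modification. Atm, the kinase that signals DNA double-strand breaks to p53, had 45.4 to 82.0 CPM in young and 29.8 to 53.03 CPM in aged HSC (log2 fold change -0.66, adjusted p = 0.00851 from edgeR). Chek1, a checkpoint kinase, had 23.3 to 31.9 CPM and 15.3 to 23.4 CPM (-0.69, adjusted p = 0.00573 from edgeR). Ep300, an acetyltransferase and coactivator of p53, had 65.1 to 153 CPM and 42.8 to 59.8 CPM with no overlap (-0.91, adjusted p = 0.000869 from edgeR). Without young replicates 1 and 5 the adjusted p from edgeR was 0.0615 for Atm and 0.0517 for Chek1, and with thinned counts it was 0.0522 and 0.104, so that neither call held there.

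Ppm1d, a phosphatase that shuts off p53 signalling, was also lower in aged HSC, with a log2 fold change of -0.94 (adjusted p = 0.0138 from edgeR). The same held for the deacetylase Sirt1, with -0.63 (adjusted p = 0.0361 from edgeR). Ppm1d had 10.9 to 18.4 CPM in young and 1.30 to 9.38 CPM in aged HSC. Its lowest aged value, in the shallow aged replicate 2, rests on 1 count, under the detection limit of 3 counts. Without young replicates 1 and 5 the calls of Ppm1d and Sirt1 were lost (adjusted p = 0.0626 for Ppm1d and 0.260 for Sirt1 from edgeR). That of Ppm1d was also lost with thinned counts (adjusted p = 0.342 from edgeR) and that of Sirt1 in 8 of 15 fits that left out 1 library. The other called regulators were Usp7 (-0.47) and Rpl11 (0.38), neither of them called without young replicates 1 and 5. After NR none of Atm, Chek1, Ep300, Ppm1d and Sirt1 was called by the quasi-likelihood test, and their log2 fold changes against aged HSC were 0.52, 0.29, 0.35, 0.63 and 0.51. Atm was called higher after NR by the likelihood ratio test (adjusted p = 0.0378) and by DESeq2 (adjusted p = 0.0250). Those tests called 3 and 4 of the 19 regulators, all higher, against 1 by the quasi-likelihood test. Over all 16154 genes they called 1734 and 1804, against 1303. The list median was 0.25 in that comparison, beside 0.02 for all genes.

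Among 12 genes of arrest and the cell cycle, 1 was higher and 2 were lower in aged than in young HSC, and 3 were lower in NR-treated than in aged HSC. These are 25% with age and 25% with NR, beside 19.3% and 8.07% of all genes. Plk2, a polo-like kinase induced by p53, was at 44.9, 66.7, 32.3, 49.0 and 45.0 CPM in young, 171, 123, 274, 143 and 186 CPM in aged and 77.1, 117, 66.5, 81.5 and 75.7 CPM in NR-treated libraries. The aged libraries lay above all others. The log2 fold change was 1.93 with age (SE 0.21, adjusted p = 2.7e-06 from edgeR) and -1.12 with NR (SE 0.20, adjusted p = 0.00467 from edgeR), and Plk2 also stayed above the young level after NR (0.81, adjusted p = 0.0274 from edgeR). That last call was lost in 6 of 15 fits that left out 1 library. The part of mature cells in the difference was not tested.

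The anti-proliferative genes Btg2 and Btg1 fell with NR, by 1.42 (adjusted p = 0.00608 from edgeR) and by 0.59 on the log2 scale (adjusted p = 0.0116 from edgeR). Btg2 was at 136 to 391 CPM in aged and at 74.1 to 120 CPM in NR-treated HSC, with no overlap. The part of mature cells in the falls of Btg2 and Btg1 was not tested. Neither gene was called with age by the quasi-likelihood test (log2 fold change 0.51 and 0.35), while DESeq2 called Btg1 (0.33, adjusted p = 0.0455). Ckap2 and Psrc1, which act in the mitotic spindle, were lower in aged HSC, with log2 fold changes of -0.71 (adjusted p = 0.0184 from edgeR) and -0.82 (adjusted p = 0.0408 from edgeR), the latter lost in 7 of 15 fits that left out 1 library and neither called without young replicates 1 and 5.

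**Figure D5:**
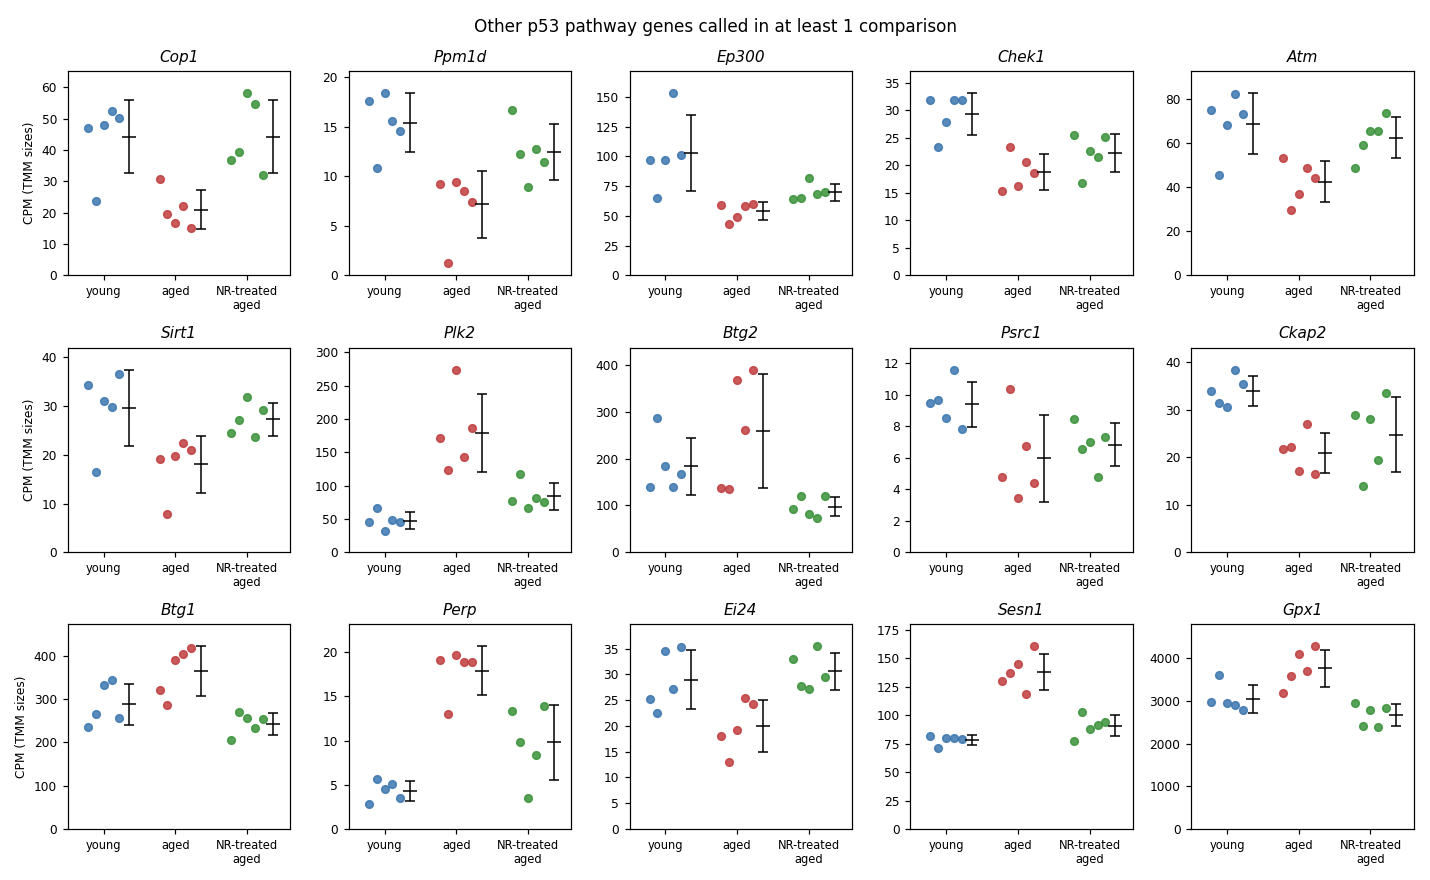
CPM (linear axis from 0) of 15 other p53 pathway genes in young, aged and NR-treated aged HSC, with 1 point per library and the mean ± SD (n = 5) beside it. The genes shown were chosen among those called in at least 1 comparison. The aged points of Plk2, Perp and Sesn1 lie above all young points, and those of Ep300, Ppm1d and Ckap2 below them. Aged and young libraries did not overlap for 7 of the 69 pathway genes, beside 2002 of all 16154 genes.

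Of 15 apoptosis genes, 1 was higher in aged than in young HSC, and after NR 1 was lower and 1 higher. These are 6.67% with age and 13.3% with NR, beside 19.3% and 8.07% of all genes. Perp, a membrane protein that p53 induces during apoptosis and that is also part of desmosomes, had 2.81, 5.63, 4.49, 5.08 and 3.51 CPM in young, 19.1, 12.97, 19.6, 18.8 and 18.9 CPM in aged and 13.3, 9.84, 3.50, 8.40 and 13.9 CPM in NR-treated libraries. The log2 fold change was 2.10 with age (SE 0.29, adjusted p = 5.7e-05 from edgeR), -0.88 with NR (SE 0.26, adjusted p = 0.0438 from edgeR) and 1.22 between NR-treated and young HSC (SE 0.30, adjusted p = 0.0231 from edgeR). The calls with NR and between NR-treated and young HSC were lost in 7 and 4 of 15 fits that left out 1 library. Ei24 was higher after NR (0.56, adjusted p = 0.0470 from edgeR), a call lost in 12 of those 15 fits. The part of mature cells in the differences of Perp and Ei24 was not tested.

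Of 15 measured repair and metabolism targets (18 listed), 1 was higher in aged HSC and 2 were lower after NR. These are 6.67% with age and 13.3% with NR, beside 19.3% and 8.07% of all genes. Sesn1, the sestrin next in kind to Sesn2, had 81.4, 71.1, 79.9, 79.8 and 78.8 CPM in young libraries, 130, 138, 145, 118 and 161 CPM in aged libraries and 77.7, 103, 88.3, 91.7 and 94.2 CPM in NR-treated libraries. It differed by 0.82 with age (SE 0.11, adjusted p = 2.3e-05 from edgeR) and by -0.61 with NR (SE 0.10, adjusted p = 0.00370 from edgeR), and both calls held in all 15 fits that left out 1 library. Aged libraries lay above all others, and the part of mature cells in this was not tested. For Sesn2 the same comparison with age gave -0.19 without a call, and the difference between both sestrins was not tested. Gpx1, a glutathione peroxidase, was at 3177 to 4275 CPM in aged and 2386 to 2950 CPM in NR-treated HSC (-0.50, adjusted p = 0.0117 from edgeR). The part of mature cells in this fall was not tested either.

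Of 8 measured members of the BCL2 family outside the target lists (11 listed), none was called in any comparison by the quasi-likelihood test, the likelihood ratio test or DESeq2, and 2, 1 and 2 had an unadjusted p under 0.05 for aged against young, NR-treated against aged and NR-treated against young HSC, beside 33.2%, 25.1% and 18.0% of all genes. Trp63 and Trp73, the p53 relatives, were not analysed here.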

How the data were processed

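The deposited values are read counts per gene, not normalised. Per the study's methods, the authors aligned reads to GRCm38 with STAR 2.4.2a, removed duplicated UMIs, counted reads on GENCODE exons with featureCounts, and dropped low genes (threshold of 5 reads and 2 CPM, to be passed by 2 or more samples). Whether counting used strand is not given in the sources used here. Some exon bases of Cdkn1a (273) and Bax (192) overlap another annotated gene.

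Groups and replicate numbers came from sample titles. Differential expression used edgeR 4.0.16 in R 4.3.3 (TMM, group as the only factor, quasi-likelihood test). Alternatives included the likelihood ratio test, DESeq2 1.42.0, other scalings and filters, fits of 2 groups, a replicate block, thinned counts and fits without single libraries. The fit without young replicates 2 and 3 was added after seeing the data. Tests were checked on simulated counts. Positions are from GENCODE on GRCm38 and promoter sequences from RefSeq (GRCm38.p6). No column was left out (0). Library depth (764119 to 13318989 counts) and the spread between libraries both limit the precision of each gene.

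The genes and lists were chosen with earlier results of these data known. Named were the 9 measured genes and, of each pathway list, up to 6 genes called in at least 1 comparison, by absolute log2 fold change. Usp7 and Rpl11 were added after their values were seen. Most similar genes were the 3 with the highest Pearson r (prior count 2, at least 10 CPM on average).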

Additional observations from a re-analysis of the deposited data

Results flagged for a closer look

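In 8 of 72 group-by-gene combinations (24 genes in 3 groups of 5 libraries) 1 library stood far from the other 4 of its group. The cutoff is set for about 1 in 20 in a single independent test. These combinations share libraries, and many of the genes were chosen by their calls in these data. No excess over chance can therefore be read from the count. Young replicate 2 was highest in Cdkn1a (101.7 CPM against 23.2 to 34.4 in the other young libraries) and in Gpx1 (3614 CPM against 2795 to 2963). The same library was lowest in Cop1 (23.7 CPM against 47.0 to 52.6) and in Sesn1 (71.1 CPM against 78.8 to 81.4). Aged replicate 2, the library with the smallest total, was lowest in Ppm1d (1.30 CPM against 7.43 to 9.38), Sirt1 (7.78 CPM against 19.2 to 22.4) and Perp (12.97 CPM against 18.8 to 19.6). NR-treated replicate 2 was highest in Zmat3 (8.65 CPM against 3.50 to 4.02). What sets these libraries apart was not tested.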

How the results depend on the processing

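Counts of called genes depended on libraries, depth and scaling, and the cause was not tested unless the setting itself removed samples or counts. Of the 9 genes, 1 was called between young and aged HSC, against 2 with library totals, 2 with genes counted 10 times or more in each library, and 0 with only the 2 groups compared, with the replicate block, with thinned counts and without young replicates 1 and 5. Between aged and NR-treated HSC 1 was called, Ccng1, lower. With library totals and with genes counted 10 times or more in each library the count was also 1, but the gene was Trp53, higher. It was 0 with only the 2 groups compared, with thinned counts and without young replicates 1 and 5. With 1 library left out, these counts ranged from 0 to 2 and from 0 to 1, and stayed at 0 between young and NR-treated HSC. Of 69 pathway genes, 13 were called with age, against 21 by DESeq2, 8 with thinned counts, 5 without young replicates 1 and 5, and 8 to 17 with 1 library left out. With NR 8 were called, against 13 with library totals (8 of them higher, against 2 with TMM) and 6 to 10 with 1 library left out. Between young and NR-treated HSC 2 were called, against 4 by the likelihood ratio test, 1 with the replicate block, 1 with thinned counts, 0 without young replicates 1 and 5, and 0 to 3 with 1 library left out. Over all genes 3120 were called with age, against 1492 with thinned counts, 1862 without young replicates 1 and 5, and 1953 to 3533 with 1 library left out. With NR 1303 were called, against 783 with genes counted 10 times or more in each library, 409 with thinned counts, and 422 to 1535 with 1 library left out. Between young and NR-treated HSC 722 were called, against 446 with thinned counts and 452 to 922 with 1 library left out. With library totals 29.1% of genes called with age were higher, against 50.1% with TMM, 78.4% of those called with NR, against 48.1%, and the median log2 fold change of all genes moved from -0.03 to -0.16 and from 0.02 to 0.16.

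Signs changed only for log2 fold changes that were not called. With library totals these were Cdkn1a with age (-0.0716), Mdm2 with NR (0.0928), Zmat3 with NR (0.0667) and Bax between young and NR-treated HSC (0.0013). With genes counted 10 times or more in each library they were Cdkn1a with age (-0.0125), Mdm2 with NR (0.0239) and Bax between young and NR-treated HSC (0.0015). With thinned counts they were Zmat3 with NR (0.33) and Sesn2 between young and NR-treated HSC (0.54). Without young replicates 1 and 5 they were Cdkn1a with age (-0.22) and Trp53 between young and NR-treated HSC (0.0257). Without young replicates 2 and 3 they were Sesn2 with age (0.13), and Cdkn1a (0.18), Bax (0.0893) and Sesn2 (0.27) between young and NR-treated HSC. With 1 library left out, Cdkn1a with age ranged from -0.12 to 0.62. With NR, Mdm2 ranged from -0.11 to 0.0336, Eda2r from -0.0513 to 0.23 and Zmat3 from -0.42 to 0.0581. Between young and NR-treated HSC, Cdkn1a ranged from -0.61 to 0.14, Bax from -0.13 to 0.0932 and Sesn2 from -0.21 to 0.0866.

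Replicate numbers were not taken as pairs, since 15 same-numbered pairs of libraries had deviations from the group means that correlated by -0.22 to 0.17, and 5 of 15 libraries correlated best with their own number. The replicate block ended the call of Trp53 with age (adjusted p = 0.0606 from edgeR) and kept that of Ccng1 with NR (adjusted p = 0.0494 from edgeR).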
